A study of Mus musculus with 15 samples.

Results

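Th17 cells were compared with the midpoint of Th1 and Tfh (T follicular helper) cells, to ask which genes Th17 cells express outside the range that the other populations span. A gene was set apart in Th17 when its mean was highest or lowest there and all 5 Th17 libraries lay outside the range of the 10 other libraries. Of 27179 genes counted, 298 met this rule, 219 as highest and 79 as lowest in Th17. Of these, 291 passed a filter on low counts (212 highest and 79 lowest), of 12591 genes that passed it in all.

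RNA was sequenced from 15 libraries of mouse CD4 T cells, 5 per population. All cells came from mice with the genotype B6.Cg-Ifngtm3.1Lky-Il17atm1.1Lky, which changes the Ifng and Il17a genes in all 3 populations alike. Naive cells had been cultured for 3.5 days on plate-bound antibodies to CD3 and CD28 and were sorted by flow cytometry. The Th1 cells were sorted as positive for interferon gamma, and the Tfh cells as positive for CXCR5 and negative for IL-17A. The sources used here do not give the gate of the Th17 cells, the added cytokines, or the age and sex of the mice. The population and its gate cannot be told apart, and the levels of Ifng, Il17a and Cxcr5 are no finding. The labels do not tie the 5 libraries of a population to separate mice or cultures. The p-values therefore speak for the spread among these libraries, part or all of which may be technical.

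Th17 cells make IL-17A and IL-17F, which act on epithelial and stromal cells to recruit neutrophils. Their differentiation from naive cells needs TGF-beta together with IL-6. IL-6 also acts in the formation of Tfh cells, which help B cells make antibody. Th1 cells instead follow T-bet, encoded by Tbx21, and make interferon gamma. IL-2, the growth factor that activated T cells secrete, signals through STAT5 and is known to restrain both the Th17 and the Tfh programme.

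Among the genes that set Th17 apart are the cytokine genes Il2, Il17a and Il17f and the chemokine gene Ccl20. Their promoters are shown because these genes encode secreted factors that were set apart in Th17. Each window holds the 250 bases before the RefSeq transcription start on GRCm38.p6, printed 5′ to 3′ on the strand of the gene. The windows are chr3:37125955-37126204 on the minus strand for Il2, chr1:20730655-20730904 on the plus strand for Il17a, chr1:20784271-20784520 on the minus strand for Il17f and chr1:83116516-83116765 on the plus strand for Ccl20. The Il17f window lies inside the span given for that gene, since the start it precedes is itself within that span, whereas the other windows lie outside their genes. Capitals mark GGAAA, the core bound by NFAT factors, in Il2, and AGGTCA, the core bound by ROR receptors, in the other windows. Both motifs were searched on both strands, so they can stand as TTTCC and TGACCT.
Il2: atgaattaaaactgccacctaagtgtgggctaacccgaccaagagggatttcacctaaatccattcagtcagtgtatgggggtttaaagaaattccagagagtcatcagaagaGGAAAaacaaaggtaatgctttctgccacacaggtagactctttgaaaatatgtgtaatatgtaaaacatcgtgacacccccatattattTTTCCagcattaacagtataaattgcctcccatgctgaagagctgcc
Il17a: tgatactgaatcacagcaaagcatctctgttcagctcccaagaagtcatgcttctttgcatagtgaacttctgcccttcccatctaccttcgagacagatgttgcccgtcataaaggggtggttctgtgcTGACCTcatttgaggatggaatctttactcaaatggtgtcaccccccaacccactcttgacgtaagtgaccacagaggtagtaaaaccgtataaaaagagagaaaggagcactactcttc
Il17f: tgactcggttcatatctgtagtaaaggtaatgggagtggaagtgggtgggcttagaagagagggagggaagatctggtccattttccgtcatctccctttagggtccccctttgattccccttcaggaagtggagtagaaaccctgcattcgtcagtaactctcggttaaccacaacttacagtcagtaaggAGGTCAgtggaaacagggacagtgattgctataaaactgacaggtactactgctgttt
Ccl20: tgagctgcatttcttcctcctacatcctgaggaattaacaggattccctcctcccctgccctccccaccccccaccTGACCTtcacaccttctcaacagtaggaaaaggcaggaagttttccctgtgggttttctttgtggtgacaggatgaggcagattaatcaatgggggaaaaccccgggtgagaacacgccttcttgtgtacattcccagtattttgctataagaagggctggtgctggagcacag

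The letters AGGTCA occurred once in each of the Il17a, Il17f and Ccl20 windows, beginning 120, 58 and 174 bases before the start. They occurred in 29 of the 170 genes highest in Th17 that have a window (17.1%) and in 4 of the 57 lowest (7.02%), against 12.8% of the 9626 genes tested that have one and 15.8% of all 27025 genes. By window, they occurred in 14.02% of all 32851 promoter windows of this length. GGAAA stood at 137 and 47 bases before the Il2 start and in 55.6% of all windows. It also occurred 2 times in the Il17f window and 3 times in the Ccl20 window, where it is not marked. By gene, it occurred in 61.2% of the highest and 54.4% of the lowest that have a window, against 58.8% of the genes tested that have one. The motifs were chosen after the gene values were seen, and a match is a description, not a binding site.

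Total counts ran from 4.87 M to 25.2 M per library, with a median of 10.5 M. Tfh replicate 1, the shallowest library, stood apart on the second principal component, at 94.0 against -0.98 to 12.1 in the other Tfh libraries. Libraries of a population differed in how their levels followed the GC content of transcripts, with a Spearman rho over all tested genes of -0.66 to 0.71, while the contrast itself had a rho of -0.07. Summed markers of CD4 T cells were at 7527 to 8721 CPM (counts scaled to a library total of 1 M) in Th17 libraries. Markers of B cells summed to 1.52 to 4.25 CPM there, with Pax5 at 0, and those of myeloid and dendritic cells to 2.04 to 5.62 CPM, with Clec9a, Siglech, S100a8 and Mpo at 0.

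Against the midpoint of Th1 and Tfh, 1313 genes rose in Th17, 10.4% of those tested, and 869 fell, 6.9% of those tested (edgeR's quasi-likelihood test, Benjamini-Hochberg adjusted p under 0.05). Higher calls were 60.2% of all calls, or 50.1% with DESeq2, which called 1350 higher and 1343 lower. A midpoint contrast does not ask whether Th17 is extreme. Th17 had the highest mean in 881 of the 1313 genes that rose and a mean between the others in 432. It had the lowest mean in 616 of the 869 genes that fell and lay between in 253. The calls depend on how the reference is built. Of the 16 genes given below as called against the midpoint with an adjusted p, P2rx7 alone was called with Th1 and Tfh fitted as 1 group, a fit in which the difference between them counts as spread. The other 15 had edgeR adjusted p-values of 0.0716 to 0.992 there, and no list had more than 4 genes called higher or 3 lower. Of all 12591 genes, 141 rose and 98 fell in that fit. With glmTreat, which tests for changes above 1.5-fold, Ccl4, Foxp3, Gata3, Pmepa1 and Slc2a1 lost their call (edgeR adjusted p = 0.0504 to 0.655). Nt5e, Il1r1, Pou2af1, H2-Ab1, Ccl4, Slc2a1 and Tnfsf8 were picked from genes already called. Their edgeR adjusted p-values against the midpoint were thus under 0.05 by choice.

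The rule on single libraries, a separate criterion from the contrast, was met by 212 genes as highest, 1.68% of those tested, and 79 as lowest, 0.627%, together 2.31%. Among them, 6 of the highest and 1 of the lowest were not called against the midpoint. Because this rule uses the same values as the contrast, the values of these 291 genes are given as a description, without p-values.

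**Figure D1:**
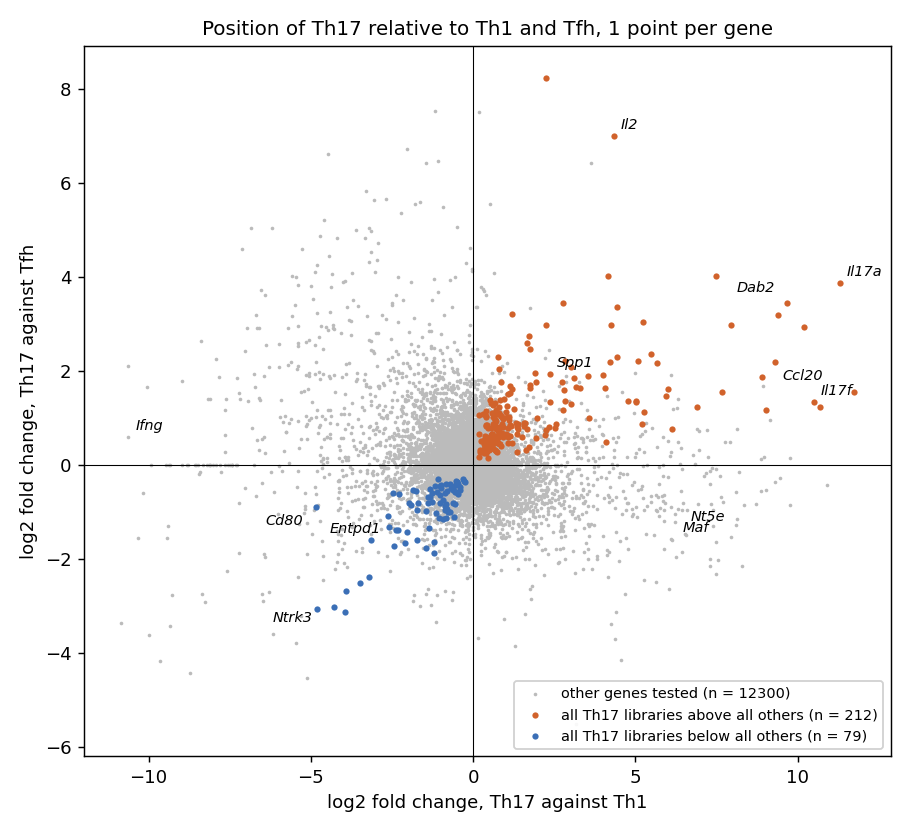
Log2 fold change of each tested gene in Th17 against Th1 (horizontal axis) and against Tfh (vertical axis). Orange points (212 genes) and blue points (79 genes) are those with all Th17 libraries above or below the 10 others. The orange genes fill the upper right and the blue genes the lower left, whereas Nt5e and Maf lie to the right but below the line of no change from Tfh.

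Most set-apart genes stood a modest distance from the nearer population. Among the 212 highest in Th17, Tfh was second in 133 and Th1 in 79, and the fold over the nearer population had a median of 1.61 and a maximum of 20.2. It reached 2-fold in 67 genes and 4-fold in 22. Among the 79 lowest, Tfh was next in 58 and Th1 in 21, the median fold was also 1.61, and 2-fold was reached in 21 and 4-fold in 6. In 31 of the highest and 4 of the lowest genes, the gap between the nearest single libraries was itself at least 1.5-fold.

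Il2 (gene ID 16183; chromosome 3, 37120713 to 37125954) had the largest fold over the nearer population among the 212 highest genes. In Th17 replicates 1 to 5 it was at 59.8, 38.5, 41.4, 34.8 and 36.7 CPM. In Th1 it was at 3.64, 0.967, 2.50, 0.923 and 2.47 CPM, and in Tfh at 0, 1.13, 0.163, 0.398 and 0 CPM. No Th17 library came near the other 10, and Th17 replicate 1 was the highest of its group. The mean was 42.2 ± 10.1 CPM in Th17 (SD, n = 5 here and below), 20.2-fold above Th1, and the log2 difference from the midpoint was 5.66 ± 0.38 (SE). Among Th17 libraries, replicate 1, with the highest Il2 level, had the lowest rho with GC content (-0.52). Replicate 4, with the lowest Il2 level, had the highest (0.71). The Il2 transcript's GC content of 39.4% is higher than that of 4.59% of tested genes, and the part of GC content in the spread was not tested. In bulk RNA, more cells making a transcript and more transcript per cell cannot be told apart.

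Il2ra, which encodes the high-affinity IL-2 receptor chain, was not set apart and was named after its values were seen. It stood at 2857 ± 203 CPM in Th17, between 5704 ± 345 in Th1 and 1391 ± 67.6 in Tfh. Of 21 genes tested for the IL-2 receptor and the STAT5 response, 3 rose (10.4% of all genes), 2 fell (6.9%) and 16 were not called against the midpoint. The median log2 difference was -0.05 (all genes 0.03). Against Tfh 12 of the 21 were higher (9.98% of all genes), and against Th1 11 were lower (17.8% of all genes). The list member Il4ra, a receptor subunit for IL-4 and IL-13, was set apart as highest at 280 ± 56.4 CPM, against 191 ± 29.1 in Th1 and 188 ± 21.5 in Tfh.

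The IL-17 genes lie next to each other on chromosome 1, and both were set apart. Il17a (16171; 20730905 to 20734496), whose product is the signature cytokine of these cells, was at 236, 189, 216, 254 and 230 CPM in Th17. It was at 4.83, 14, 20.3, 18.8 and 17.3 CPM in Tfh, and between 0 and 0.170 CPM in Th1. Il17f (257630; 20777146 to 20785274), on which no sort is stated, was at 11955, 10691, 10390, 12000 and 11226 CPM in Th17. In Tfh it was at 3833, 3585, 5036, 4370 and 5345 CPM, and in Th1 at 5.75, 2.90, 12.9, 1.38 and 14.9 CPM. Tfh cells thus held much Il17f although they were gated against IL-17A, and Th17 exceeded them 2.54-fold. The Il17a gap of 14.7-fold is no finding, since the Tfh gate used IL-17A. The part of that gate in the Il17f gap was not tested.

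Ccl20 (20297; chromosome 1, 83116766 to 83119167), which encodes the chemokine that attracts CCR6-bearing cells, was at 907, 599, 508, 274 and 365 CPM in Th17. Tfh libraries had 113, 154, 128, 61.2 and 125 CPM, and Th1 libraries at most 1.54 CPM. The Ccl20 level was lower in Th17 libraries with a higher GC rho, which was -0.52, -0.50, -0.15, 0.71 and 0.39 in the same order, and the transcript's GC content of 39.0% is higher than that of 3.49% of tested genes. The part of GC content in that spread was not tested.

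Tmem176a and Tmem176b encode ion channel proteins of Th17 and dendritic cells. Tmem176a was at 100.4 ± 23.7 CPM in Th17, against 42.2 ± 18.5 in Tfh and 0.809 ± 0.449 in Th1, and Tmem176b at 124 ± 31.0, 72.6 ± 10.1 and 1.61 ± 0.886 CPM. The genes overlap on chromosome 6, so reads may be split between them.

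Dab2 (13132; chromosome 15, 6299788 to 6440715) encodes an endocytic adaptor that also takes part in TGF-beta signalling. It was at 23.6, 25.7, 18.9, 20.4 and 23.6 CPM in Th17, and at 3.29, 0.565, 2.86, 1.09 and 2.47 CPM in Tfh. Only Th1 replicate 5 had a count for it, of 1 read. The Th17 libraries formed a narrow band of 22.5 ± 2.73 CPM, 10.9-fold above Tfh. The summed count was 1156 in Th17 and 1 in Th1, a ratio of 1420 with an exact 95% interval of 254 to 56126 (counting error only). The log2 difference from the midpoint was 6.56 ± 0.38, or 7.16 without Th1 replicate 5.

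Of 16 endocytosis and lipoprotein receptor adaptor genes tested, 2 rose and none fell, with 14 not called and a median log2 difference of 0.04 (all genes 0.03, with 10.4% that rose). Of 24 TGF-beta pathway genes, 6 rose (10.4% of all genes), 1 fell (6.9%) and 17 were not called, with a median of 0.30. Against Th1, 13 were higher (19% of all genes) and 3 lower (17.8%), whereas against Tfh 3 were higher (9.98%) and 5 lower (6.8%). Dab2 alone was set apart. The TGF-beta signal transducer Smad3 was at 155 ± 22.6 CPM in Th17 and 194 ± 26.7 in Tfh, against 26.8 ± 2.85 in Th1. Pmepa1, a TGF-beta target and feedback inhibitor, was at 196 ± 45.9, 215 ± 64.0 and 46.4 ± 11.2 CPM in the same order. Both rose against the midpoint (log2 1.11 ± 0.11 and 0.97 ± 0.18, edgeR adjusted p = 8.62e-07 and 0.000960) and were named after their values were seen.

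Ngfr (18053; chromosome 11, 95568818 to 95587698) is the gene of the low-affinity neurotrophin receptor. It was at 11.6, 4.55, 17.8, 34.4 and 22.5 CPM in Th17, at 3.29, 0.565, 1.96, 2.39 and 1.78 CPM in Tfh, and had 1 read in all of Th1. The allele Il17atm1.1Lky is known as a reporter that places a human NGFR marker behind Il17a. Reads of the reporter and of the mouse gene cannot be told apart in these counts. The order of the 5 Th17 values is close to that of the libraries' GC rho, the transcript has 58.6% GC, above 92.8% of tested genes, and the part of GC content was not tested.

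**Figure D2:**
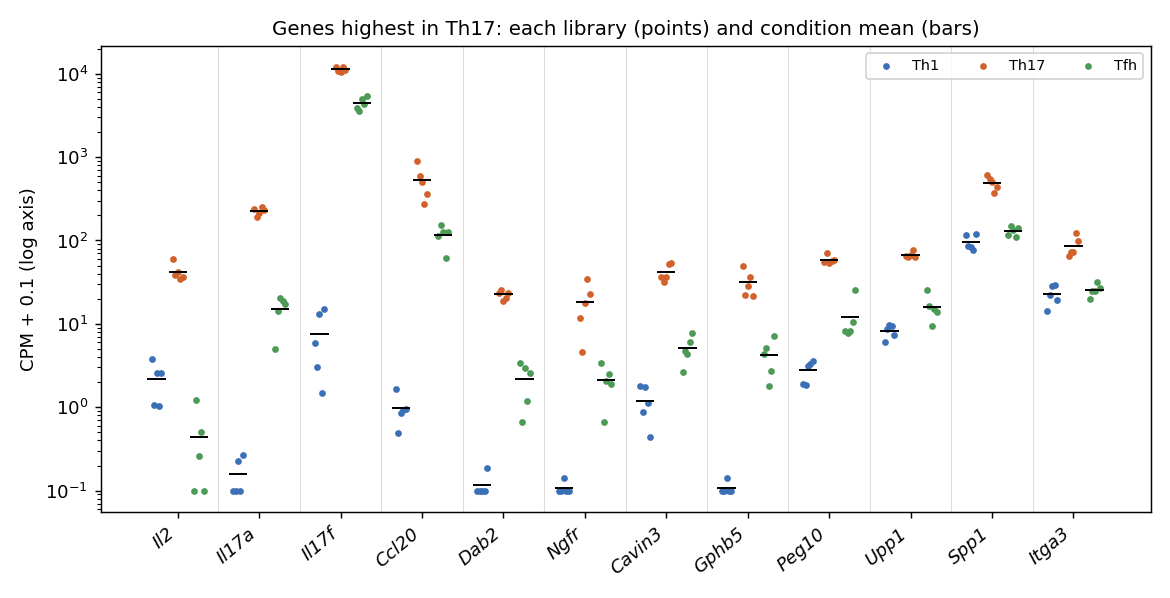
Level of 12 genes highest in Th17 in each library (points) and as the mean of 5 libraries (black bars), as CPM plus 0.1 on a log axis. In every gene shown the 5 Th17 points stand above the 10 others; Tfh is second for all except Il2, where Th1 is.

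The next highest genes by fold over the nearer population include several outside the lists. Cavin3 (109042), a coat protein gene of caveolae, was at 36.6, 31.8, 36.1, 52.2 and 54.1 CPM in Th17, at 2.51 to 7.61 CPM in Tfh and at 0.341 to 1.68 CPM in Th1. Gphb5 (217674), which encodes a glycoprotein hormone subunit, was at 49.4, 22, 28.7, 36.3 and 21.6 CPM in Th17, at 1.72 to 7.11 CPM in Tfh, and had 1 read in Th1. Their folds over Tfh were 8.28 and 7.66.

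Peg10, an imprinted gene derived from a retrotransposon, was at 59.0 ± 6.86 CPM in Th17, against 11.9 ± 7.48 in Tfh and 2.67 ± 0.824 in Th1. Upp1, which encodes uridine phosphorylase of pyrimidine salvage, was at 66.6 ± 5.79, 15.9 ± 5.76 and 8.15 ± 1.5 CPM. Timd2, a TIM family receptor gene, was at 16.1 ± 6.66, 2.17 ± 1.83 and 0.885 ± 0.469 CPM. All 3 were at least 4.22-fold above the nearer population. Hsd17b13, of the hydroxysteroid dehydrogenase family, was at 10.1 ± 2.66 CPM in Th17 and 1.44 ± 2.30 in Tfh, and had 2 reads in Th1. Its Tfh mean rested on replicate 1 (5.41 CPM), without which the log2 difference from the midpoint went from 5.45 to 6.19, and it was 6.29 without Th1 replicate 3.

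Spp1 (20750), the gene of osteopontin, was at 613, 553, 505, 373 and 434 CPM in Th17. Tfh libraries had 109 to 147 CPM and Th1 libraries 76.8 to 118 CPM, so the other populations overlapped each other and neither reached Th17, which was 3.83-fold above Tfh. Itga3, an integrin subunit for laminins, showed the same layout at 86.4 ± 24.7 CPM in Th17, against 25.5 ± 4.46 in Tfh and 22.6 ± 6.32 in Th1. Among Th17 libraries Spp1 (43.3% GC) was lower where the GC rho was higher. Itga3 (57.9% GC) was highest in replicates 4 and 5, at 124 and 97.9 CPM, where rho was 0.71 and 0.39. The part of GC content was not tested. Of 21 integrin and adhesion genes tested, 4 rose (10.4% of all genes), 4 fell (6.9%) and 13 were not called. Itga3 alone was set apart.

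Pdpn and Tgfbi were named after their values were seen. Pdpn, which encodes the surface glycoprotein podoplanin, was at 260 ± 42.9 CPM in Th17, against 129 ± 12.1 in Tfh and 21.8 ± 4.37 in Th1. Tgfbi, an extracellular matrix protein gene induced by TGF-beta, was at 35.6 ± 8.66, 9.65 ± 5.97 and 0.0596 ± 0.111 CPM. Its log2 difference from the midpoint was 5.39 ± 0.39, or 6.01 without Th1 replicate 5.

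Of 22 chemokine and receptor genes tested, 9 rose (10.4% of all genes) and 2 fell (6.9%) against the midpoint. Besides Ccl20 the members Xcl1, Cxcr4 and Ccr4 were set apart as highest. Cxcr4, the receptor for CXCL12, was at 214 ± 18.9 CPM in Th17, against 121 ± 30.4 in Tfh and 72.9 ± 9.13 in Th1. Xcl1, which encodes the chemokine lymphotactin, was at 16.9 ± 6.97, 4.54 ± 3.55 and 1.88 ± 1.47 CPM, and Ccr4, a receptor of Th2 and skin-homing cells, at 127 ± 16.3, 82.3 ± 16.1 and 98.0 ± 9.15 CPM. S1pr1, the receptor through which T cells leave lymph nodes, went the other way. It was at 122, 123, 110, 111 and 98.9 CPM in Th17 and at 123, 202, 153, 150 and 135 CPM in Tfh, and at 253 ± 12.1 CPM in Th1. The separation from Tfh was narrow, since Tfh replicate 1 lay level with the highest Th17 library to 3 digits.

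The 7 genes that met the rule without passing the filter on low counts were all highest in Th17. Agtr2, which encodes an angiotensin II receptor, was at 6.79, 2.75, 1.53, 0.848 and 0.436 CPM in Th17 replicates 1 to 5. It had 116 reads in Th17, 2 in Tfh and 0 in Th1, at least 47.5-fold higher than in Th1 against a floor of 3 counts over the population, or at least 28.4-fold without Th17 replicate 1. Mpp3, Prss30, Txndc2, Six3, Msantd3 and Aoc1 had between 23 and 81 reads in Th17, 0 to 3 in Th1 and 0 to 21 in Tfh. At this depth these genes add to the count of members and little to any comparison of size.

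Among the genes lowest in Th17, Entpd1 (12495; chromosome 19, 40612366 to 40741602) encodes CD39, the ectoenzyme that breaks extracellular ATP down to AMP. It was at 2.69, 3.92, 5.27, 3.77 and 6.62 CPM in Th17, at 14.5, 8.48, 12.1, 11.4 and 11.7 CPM in Tfh, and at 24.5, 18.7, 25.1, 24.8 and 17.4 CPM in Th1. The 3 populations did not overlap, and Th17 lay 2.59-fold below Tfh and 4.92-fold below Th1. Nt5e, the gene of CD73, which turns AMP into adenosine, did not share this order. It was at 775 ± 37.3 CPM in Th17, between 1359 ± 215 in Tfh and 8.62 ± 1.96 in Th1, and rose against the midpoint (log2 2.83 ± 0.12, edgeR adjusted p = 1.39e-11).

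Of 14 genes of extracellular ATP and adenosine tested, 2 rose (10.4% of all genes) and 2 fell (6.9%), and Entpd1 alone was set apart. The number that rose was 4 without Th1 replicate 1 or without Tfh replicate 2. The other gene that fell was P2rx7, which encodes an ATP-gated channel and was named after its values were seen. It was at 11.7 ± 4.54 CPM in Th17, against 24.4 ± 9.40 in Tfh and 127 ± 23.5 in Th1 (log2 -2.26 ± 0.25, edgeR adjusted p = 3.12e-06), and its Th17 and Tfh libraries overlapped.

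Ntrk3 (18213; chromosome 7, 78179986 to 78581034), which encodes the neurotrophin-3 receptor TrkC, was far lower in Th17 than elsewhere. Its Th17 levels were 0.468, 0.318, 1.02, 1.70 and 0.349 CPM. Tfh libraries had 2.13, 10.6, 6.78, 7.56 and 4.84 CPM, and Th1 libraries 12.2 to 19.4 CPM. The log2 difference from the midpoint was -3.66 ± 0.43. Sv2c, a synaptic vesicle glycoprotein gene, was at 0.727 ± 0.789 CPM in Th17, against 5.03 ± 4.08 in Tfh and 11.5 ± 3.15 in Th1. Its difference of -3.29 ± 0.58 became -4.11 without Th17 replicate 5, and its Tfh mean was raised by replicate 1 at 12.2 CPM.

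Irf7 (54123) encodes the interferon regulatory factor that drives type I interferon genes. It was at 2.46, 1.91, 2.89, 3.86 and 2.53 CPM in Th17, at 6.78 to 11.9 CPM in Tfh and at 7.43 to 18.2 CPM in Th1. Tnfsf10 (22035), the gene of the death ligand TRAIL, was at 1.17, 7.62, 4.50, 4.90 and 4.18 CPM in Th17, at 12 to 17.1 CPM in Tfh and at 26.9 to 58.6 CPM in Th1. In both genes every Th17 library lay below every other library.

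Irf9, Ifnar1 and Nlrc5 were set apart as lowest and named after their values were seen. Irf9, a subunit of the complex that carries type I interferon signals to the nucleus, was at 61.2 ± 4.48 CPM in Th17, against 84.3 ± 6.90 in Tfh and 80.7 ± 11.8 in Th1. Ifnar1, a chain of the type I interferon receptor, was at 90 ± 6.63, 126 ± 15.2 and 137 ± 10.3 CPM. Nlrc5, the activator of MHC class I genes, was at 21.9 ± 1.6, 33.6 ± 14.6 and 107 ± 16.7 CPM, with Tfh replicate 1 at 59.5 CPM. No list of interferon genes was tested here.

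Antigen presentation and co-stimulation showed mixed positions. Cd80 (12519), a ligand of CD28 and CTLA-4, was at 4.57, 4.66, 3.65, 4.05 and 1.92 CPM in Th17 and at 9.09, 7.20, 6.94, 7.07 and 4.94 CPM in Tfh, against 107 ± 8.64 CPM in Th1. Ctla4, the inhibitory receptor for the same ligand, was set apart as highest at 1254, 1405, 1232, 975 and 1108 CPM in Th17. Tfh libraries had 580 to 805 CPM and Th1 libraries 669 to 883 CPM, so Th17 was 1.59-fold above Th1 and 1.75-fold above Tfh. Of 21 co-stimulatory and co-inhibitory receptor genes, 4 rose (10.4% of all genes), 9 fell (6.9%) and 8 were not called, with a median of -0.34.

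H2-Oa, a subunit of the MHC class II modulator, was at 2.03 ± 0.845 CPM in Th17, against 5.41 ± 1.72 in Tfh and 10.6 ± 3.59 in Th1. H2-Ab1, a chain of the classical MHC class II molecule, rose against the midpoint (log2 2.04 ± 0.32, edgeR adjusted p = 0.000194). It was at 30.6 ± 6.57 CPM in Th17, 35.7 ± 9.91 in Th1 and 1.65 ± 1.23 in Tfh. Of 8 MHC class II genes tested, 1 rose (10.4% of all genes) and 4 fell (6.9%). Beside these genes, summed B cell markers were at 14.8 to 27.7 CPM in Th1 and 0 to 4.08 CPM in Tfh, and those of myeloid and dendritic cells at 12.6 to 28.9 CPM in Th1 and 2.86 to 5.73 CPM in Tfh. The part of either cell type was not tested.

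**Figure D3:**
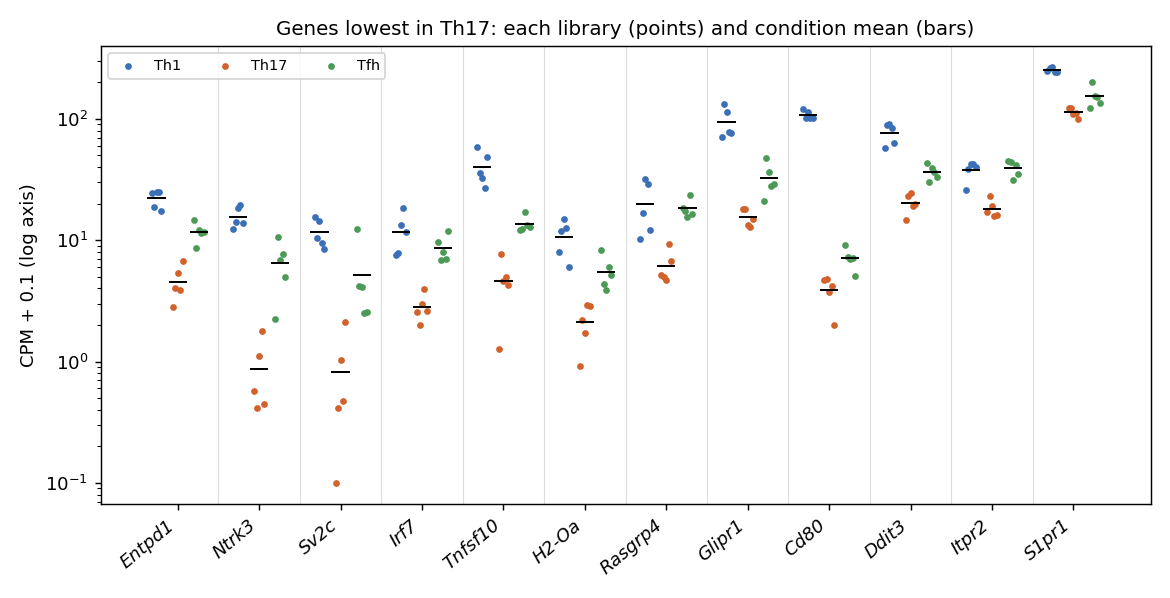
Level of 12 genes lowest in Th17 in each library (points) and as the mean of 5 libraries (black bars), as CPM plus 0.1 on a log axis. In every gene shown the 5 Th17 points stand below the 10 others, by a wide gap for Irf7 and Tnfsf10 and a narrow one for S1pr1 and Cd80.

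Signalling and stress genes completed the named set of lowest genes. Itpr2, a calcium release channel of the endoplasmic reticulum, was at 17.0, 22.9, 18.9, 15.6 and 16.0 CPM in Th17, against 39.3 ± 5.95 in Tfh and 37.6 ± 6.74 in Th1. Rasgrp4, an activator of Ras, was at 6.05 ± 1.90 CPM in Th17, against 18.2 ± 3.15 in Tfh and 19.9 ± 9.85 in Th1. In both genes the Th1 and Tfh means lay close together and Th17 stood below them. Glipr1 (15.3 ± 2.49, 32.2 ± 9.89 and 94.3 ± 27.1 CPM in Th17, Tfh and Th1), St8sia6, a sialyltransferase gene (1.90 ± 0.867, 4.73 ± 1.47 and 11.5 ± 2.63 CPM), and Mex3a, an RNA-binding protein gene (2.52 ± 0.797, 6.87 ± 2.67 and 10.3 ± 1.14 CPM), ran down from Th1 through Tfh to Th17. For Arl5c (5.05 ± 1.09, 18.4 ± 7.19 and 11.6 ± 3.50 CPM) Tfh had the highest mean, and its Tfh and Th1 libraries overlapped.

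The lists of lineage genes show where Th17 stands outside its own neighbours and where it does not. Of 23 Th17 programme genes tested, 15 rose (10.4% of all genes), 1 fell (6.9%) and 7 were not called against the midpoint. The median log2 difference was 1.55 (all genes 0.03). Th17 had the highest mean in 12 of the 23 (24.4% of all genes) and lay between the others in 11 (54.0% of all genes). Against Th1, 18 were higher (19% of all genes) and 2 lower (17.8%), whereas against Tfh 9 were higher (9.98%) and 4 lower (6.8%). Il17a is on this list and was sorted on. With Th1 and Tfh fitted as 1 group, 2 rose and none fell, beside 141 and 98 of all 12591 genes. Only 5 members, Il17a, Il17f, Ccl20, Tmem176a and Tmem176b, were set apart.

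Some members of that programme were higher in Tfh than in Th17. Maf, which encodes c-Maf, was at 798 ± 194 CPM in Th17 and 1630 ± 350 in Tfh, and Il1r1, the IL-1 receptor gene, at 124 ± 3.07 and 228 ± 43.9 CPM. Maf had 10.7 ± 2.75 CPM and Il1r1 1.74 ± 0.446 CPM in Th1, so both rose against the log-scale midpoint (log2 2.60 ± 0.17 and 2.61 ± 0.13, edgeR adjusted p = 1.96e-09 and 9.94e-11) while Tfh stood above Th17. Maf shows what the midpoint on a log scale means: against the plain average of the Th1 and Tfh CPM values its log2 difference was -0.04.

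Il21, a cytokine of both lineages, was at 922 ± 167 CPM in Th17 and 981 ± 178 in Tfh, and the xenobiotic enzyme gene Cyp1b1, an AHR target, at 47.8 ± 10.9 and 69.5 ± 23.4 CPM. Their log2 differences between Th17 and Tfh were -0.09 ± 0.18 and -0.54 ± 0.22 (edgeR adjusted p = 0.792 and 0.103). Ccr6, the CCL20 receptor, was at 76.1 ± 10 and 68.2 ± 14.4 CPM (0.16 ± 0.23, edgeR adjusted p = 0.701). Il23r, the IL-23 receptor gene, stood out from Tfh more, at 57.9 ± 21.2 against 13.5 ± 3 CPM, but with 31.4 ± 16.2 CPM in Th1 its Th17 and Th1 libraries overlapped. Ccr6 and Il23r were named after their values were seen.

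The Tfh programme gave 6 genes that rose (10.4% of all genes) and 3 that fell (6.9%) of 19 tested. Th17 lay between the others in 14 (54.0% of all genes), with none set apart. Bcl6, which encodes the Tfh-specifying repressor, stood at 59.2 ± 18.7 CPM in Th17, between 125 ± 40.2 in Tfh and 13.3 ± 4.71 in Th1, and was not called against the midpoint (log2 0.53 ± 0.23, edgeR adjusted p = 0.134). Cxcr5, on which Tfh cells were sorted, lay close to the midpoint at 39.0 ± 4.75 CPM (-0.10 ± 0.13, edgeR adjusted p = 0.677). Pou2af1, a coactivator of B and Tfh cells, was at 238 ± 13.2 CPM in Th17, against 412 ± 38.9 in Tfh and 1.23 ± 0.903 in Th1, and rose against the midpoint (3.46 ± 0.19, edgeR adjusted p = 3.06e-10).

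The Th1 programme gave 4 genes that rose (10.4% of all genes) and 12 that fell (6.9%) of 25 tested. The median was -1.05, and none was set apart in Th17. Against Th1, 1 was higher (19% of all genes) and 20 lower (17.8%), whereas against Tfh 9 were higher (9.98%) and none lower (6.8%). Ifng is on this list and was sorted on. Summed NK cell and innate lymphocyte markers were at 241 to 698 CPM in Th1, against 7.84 to 11.6 in Th17 and 5.09 to 12.9 in Tfh, with Ncr1, Klra8 and Il5ra at 0 throughout. CD8 T cell markers summed to 48.0 to 62.4 CPM in Th1, 14.7 to 22 in Th17 and 7.73 to 12.9 in Tfh, and gamma-delta T cell markers to 26.8 to 52.5, 15.1 to 21.3 and 13.0 to 29.2 CPM. The part of these cells in the result was not tested. With Th1 and Tfh fitted as 1 group, none of the 25 was called. Tbx21 was at 2.55 ± 1.08 CPM in Th17 and 3.77 ± 0.834 in Tfh, against 181 ± 58.0 in Th1. Its fall of -3.35 ± 0.27 against the midpoint (edgeR adjusted p = 6.07e-08) thus came with no call between Th17 and Tfh (-0.57 ± 0.30, edgeR adjusted p = 0.229). Ccl4, an inflammatory chemokine gene, rose against the midpoint (1.14 ± 0.21, edgeR adjusted p = 0.000899), at 99.8 ± 25.8 CPM in Th17, 104 ± 42.4 in Th1 and 19.5 ± 5.03 in Tfh.

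In the Treg programme, 5 genes rose (10.4% of all genes) and 5 fell (6.9%) of 21 tested. Foxp3, whose product specifies regulatory T cells, stood at 7.20 ± 2.26 CPM in Th17, between 13.0 ± 4.57 in Tfh and 0.483 ± 0.669 in Th1. Its call against the midpoint (1.42 ± 0.48, edgeR adjusted p = 0.0484) was lost without Th1 replicate 4 or 5, without Th17 replicate 1, 3, 4 or 5, and without any Tfh replicate, with adjusted p-values up to 0.156. It was also lost with RLE scaling factors (edgeR adjusted p = 0.0577), with a stricter filter on low counts (0.0548), with glmTreat (0.261) and with Th1 and Tfh fitted as 1 group (0.980). Gata3, the Th2 factor, fell (-0.99 ± 0.26, edgeR adjusted p = 0.0110), at 6.82 ± 1.45 CPM in Th17, 7.39 ± 3.40 in Th1 and 24.4 ± 2.82 in Tfh. Tnfsf8, the CD30 ligand gene, fell as well (-2.29 ± 0.30, edgeR adjusted p = 2.28e-05). It was at 5.42 ± 1.54 CPM in Th17, against 5.25 ± 3.16 in Tfh and 134 ± 16.6 in Th1. Its Th17 and Tfh libraries overlapped, below those of Th1.

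**Figure D4:**
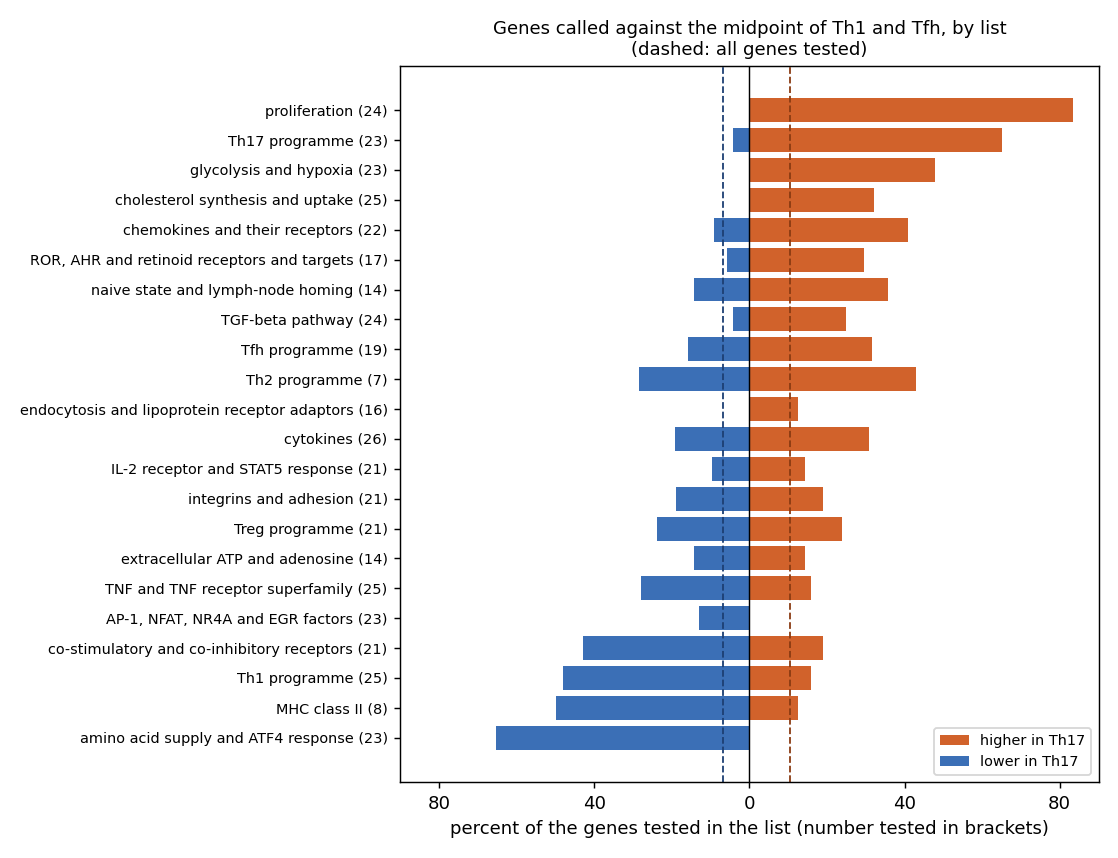
Share of the tested genes of each list called higher (orange, right) or lower (blue, left) in Th17 against the midpoint of Th1 and Tfh, with the number tested in brackets. Dashed lines mark the shares over all genes, 10.4% and 6.9%. The proliferation and Th17 lists reach farthest to the right and the list of amino acid supply and ATF4 response farthest to the left.

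Among the lists plotted, genes of cell division had the highest share called. Of 24 proliferation genes, 20 rose (10.4% of all genes) and 4 were not called, with a median log2 difference of 0.64. Th17 had the highest mean in 18 (24.4% of all genes). The median was 1.1 against Tfh and 0.25 against Th1. Against Tfh 22 of the 24 were higher (9.98% of all genes), and against Th1 7 were (19% of all genes). Of the 20 that rose, 2 were called with glmTreat and 4 with Th1 and Tfh fitted as 1 group. Of all 12591 genes, 344 and 141 rose in these fits. Mki67, the marker of cycling cells, was at 1590 ± 195 CPM in Th17, 1154 ± 150 in Th1 and 711 ± 167 in Tfh, with Th17 and Th1 libraries overlapping. Pcna, the sliding clamp of DNA polymerase, was at 207 ± 20.9, 177 ± 23.3 and 116 ± 18.6 CPM. Mki67 and Pcna were named after their values were seen.

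The list members set apart were Tyms, Rrm2 and Mcm5. Tyms, the thymidylate synthase gene, was at 109, 117, 108, 99.0 and 112 CPM in Th17, at 57.0, 51.6, 62.5, 66.6 and 76.8 CPM in Th1, and at 42.3, 39.1, 43.7, 50.6 and 56.5 CPM in Tfh. Th17 lay 1.73-fold above Th1, whose libraries in part overlapped those of Tfh. Rrm2, a subunit of ribonucleotide reductase, was at 392 ± 44.3 CPM in Th17, 257 ± 19.6 in Th1 and 161 ± 42.1 in Tfh, and Mcm5, of the replicative helicase, at 170 ± 19.5, 103 ± 14.1 and 115 ± 12.1 CPM.

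Outside the list, and named after their values were seen, the other reductase subunit Rrm1 was at 510 ± 57.2 CPM in Th17, 337 ± 48.2 in Th1 and 278 ± 27.9 in Tfh. The helicase gene Mcm4 was at 415 ± 44.3, 267 ± 30.3 and 289 ± 51.2 CPM, and the cell cycle factor gene E2f8 at 98.6 ± 8.26, 61.7 ± 15.2 and 54.6 ± 12.4 CPM. All 3 met the rule, at 1.43-fold to 1.6-fold above the nearer population.

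Glycolysis followed Th1 more closely. Of 23 glycolysis and hypoxia genes, 11 rose (10.4% of all genes), none fell (6.9%) and 12 were not called, with a median of 0.40. The median was -0.04 against Th1 and 1.07 against Tfh, with 16 genes higher than Tfh (9.98% of all genes) and 5 higher (19%) and 5 lower (17.8%) than Th1. With glmTreat 2 rose (344 of all 12591 genes), and with Th1 and Tfh fitted as 1 group 3 did (141 of all genes). Gapdh, which has many near-identical copies in the genome, had only 14.5 ± 4.6 CPM in Th17, so its count is uncertain. Slc2a1, the glucose transporter GLUT1, rose against the midpoint (0.75 ± 0.18, edgeR adjusted p = 0.00767) and was at 128 ± 18.6 CPM in Th17, 131 ± 43.8 in Th1 and 44.5 ± 12.1 in Tfh.

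The set-apart members of the glycolysis and hypoxia list were Ldha, Slc16a3 and Bnip3. Ldha, which turns pyruvate into lactate, was at 2432, 2120, 2376, 1941 and 2255 CPM in Th17, at 1701, 1697, 1602, 1570 and 1851 CPM in Th1, and at 1224 ± 175 CPM in Tfh. Slc16a3, which exports lactate, was at 234 ± 43.1 CPM in Th17, 122 ± 30.8 in Th1 and 88.2 ± 10.6 in Tfh. Bnip3, a hypoxia-induced mitophagy receptor, was at 144 ± 25.6, 81.9 ± 14.6 and 34.6 ± 13.4 CPM. Th17 was 1.32-fold above Th1 for Ldha, 1.92-fold for Slc16a3 and 1.75-fold for Bnip3.

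Of 25 cholesterol synthesis and uptake genes, 8 rose (10.4% of all genes), none fell (6.9%) and 17 were not called, with a median of 0.30. The median was -0.08 against Th1 and 0.79 against Tfh. Against Tfh 16 were higher (9.98% of all genes), and against Th1 4 were higher (19%) and 9 lower (17.8%). The number that rose against the midpoint was 5 without Th1 replicate 2 or 5, Th17 replicate 4 or 5, or Tfh replicate 2. It was 3 without Th17 replicate 3. The member set apart was Hsd17b7, of sterol synthesis, at 109 ± 15 CPM in Th17, 67.3 ± 9.10 in Th1 and 51.5 ± 14.7 in Tfh.

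The list of amino acid supply and of the response to the stress factor ATF4 moved the opposite way against the midpoint, though not against Tfh. Of 23 genes, 15 fell (6.9% of all genes), none rose (10.4%) and 8 were not called, with a median of -0.63. Against Th1 21 of the 23 were lower (17.8% of all genes), whereas against Tfh 11 were higher (9.98%) and 2 lower (6.8%). The median was -1.80 against Th1 and 0.61 against Tfh, and Th17 lay between the others in 16 genes (54.0% of all genes). With glmTreat 4 genes fell (206 of all 12591 genes), and with Th1 and Tfh fitted as 1 group 2 did (98 of all genes). Asns, the asparagine synthetase gene, was at 40.8 ± 3.34 CPM in Th17, against 23.8 ± 3.28 in Tfh and 326 ± 16.4 in Th1 (log2 -1.11 ± 0.11, edgeR adjusted p = 5.54e-07). Trib3, a pseudokinase gene induced by ATF4, was at 3.28 ± 0.819, 3.60 ± 1.34 and 31.5 ± 5.16 CPM (-1.68 ± 0.24, edgeR adjusted p = 5.85e-05). Asns and Trib3 were named after their values were seen.

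Ddit3, which encodes the stress factor CHOP, was the single member set apart, as lowest. It was at 14.6, 22.9, 24.5, 19.1 and 19.8 CPM in Th17, at 42.7, 29.8, 39.5, 36.1 and 32.8 CPM in Tfh, and at 57.3, 88.8, 90.3, 83.6 and 63.4 CPM in Th1. The 3 populations did not overlap, and Th17 lay 1.79-fold below Tfh.

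**Figure D5:**
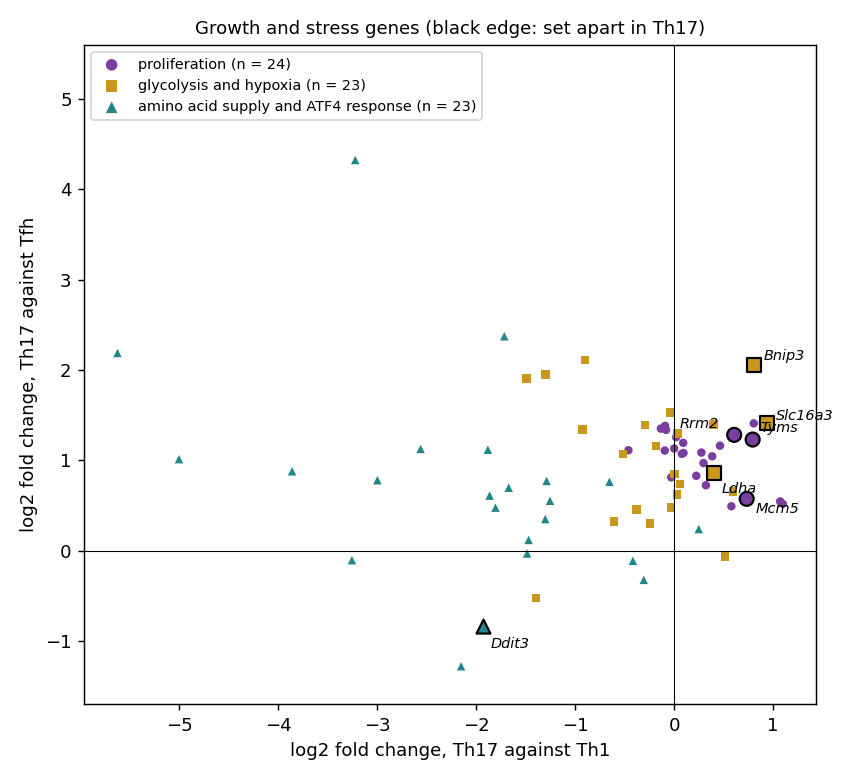
Log2 fold change in Th17 against Th1 (horizontal) and against Tfh (vertical) for the tested genes of 3 lists, with set-apart genes edged in black. Proliferation genes lie in a band above the line of no change from Tfh, most of them at or right of the Th1 line, whereas most amino acid and ATF4 genes lie to its left.

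The remaining lists stand beside shares of 10.4% that rose and 6.9% that fell over all genes. TNF and TNF receptor superfamily genes gave 4 that rose and 7 that fell of 25. AP-1, NFAT, NR4A and EGR factors gave 0 and 3 of 23. The 4 TNF family genes that rose were 2 without Th1 replicate 2, Th1 replicate 5, Th17 replicate 1, Th17 replicate 4, Th17 replicate 5, Tfh replicate 2 or Tfh replicate 5. Among 26 cytokine genes 8 rose and 5 fell, or 3 fell without Th17 replicate 3, Tfh replicate 4 or Tfh replicate 5. Genes of ROR, AHR and retinoid receptors gave 5 and 1 of 17, and of the naive state and lymph-node homing 5 and 2 of 14. None of the 10 CD4 T cell markers was called against the midpoint, although 7 were higher than in Th1 (19% of all genes) and 6 lower than in Tfh (6.8%).

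Set-apart genes were spread over the genome. They lay on all 19 autosomes and the X chromosome, from 1.21% of the genes tested on chromosome 14 to 3.40% on chromosome 13, and none of the 10 mitochondrial genes was among them. Of the 212 highest genes 210 were protein coding (99.1%) and of the 79 lowest 74 (93.7%), against 90.8% of all genes tested. The median GC content of their transcripts was 49.1% and 49.7%, against 49.6% for all. The median level in Th17, on which the rule itself selects, was 65.7 CPM for the highest and 25.7 CPM for the lowest genes, against 27.8 CPM for all. Taken in the population with the highest mean of each gene, the medians were 65.7, 65.0 and 36.4 CPM in the same order.

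Just inside the rule, Entr1 was at 125 to 141 CPM in Th17 and at most 125 CPM elsewhere, and Polr2d at 91.0 to 107 CPM with at most 90.9 CPM elsewhere. Just outside it, Mrpl40 was at 95.9 to 138 CPM in Th17 with up to 96.1 CPM elsewhere, and Ppp2cb at 96.2 to 114 CPM with up to 96.5 CPM. On the low side, Pdxdc1 (30.1 to 42.2 CPM) and Chd2 (40.2 to 52.0 CPM) fell just inside, next to lowest values elsewhere of 42.3 and 52.2 CPM. Zmynd8 (138 to 157 CPM) and Stx16 (89.4 to 104 CPM) fell just outside.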

How the data were processed

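The deposited values are raw counts of reads per gene, listed by Entrez gene ID. The submitters' processing notes name STAR 2.7.2b, the mm10 build and featureCounts 1.6.4 as what the authors used to make the counts, and per the labels the Lexogen SENSE kit was given 100 ng of RNA. The annotation used, the strand setting and the handling of reads with several matches are not stated in those notes, so values of genes with near-identical copies, and of overlapping genes, are uncertain. Names came from RefSeq tables of GRCm38.p6 for 25275 IDs and from GENCODE for 18, and 1886 IDs had no name. All 15 single-sample files matched the series table. The lowest chi-square per gene between libraries of a population was 9.39, so none was a repeat of another.

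A model with 3 population means and no covariate was fitted to the counts as deposited, with edgeR 4.0.16 in R 4.3.3 (TMM factors, default filter on low counts, robust quasi-likelihood test). The filter left 12591 genes and removed 5472 others with a count. The contrast was Th17 minus the average of Th1 and Tfh on the log scale, and Th17 against each was read from the same fit. These comparisons share the Th17 libraries. CPM values use TMM-scaled library sizes, errors of levels are SDs, and errors of log2 values are SEs. Log2 values of genes with few reads in a population depend on the prior count. Where a population had 1 to 3 reads, the ratio of summed counts carries an exact Clopper-Pearson interval, and with 0 reads the floor is 3 counts. The fit was tested on simulated data.

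The set-apart rule, the 29 gene lists and the rule for named genes were chosen with earlier results of these data known. Named were Il2, Il17a, Dab2, Entpd1 and 9 lineage genes. Added per direction were the 12 set-apart genes of largest fold over the nearer population (at least 10 CPM). Up to 3 set-apart members of each list (at least 5 CPM) and 2 genes on each side of the rule's edge (at least 50 CPM) followed. Up to 1 intermediate member per list and direction was also added. It was the member of largest contrast among those already called against the midpoint. Not described are Il24, Bub1 and Chac1, whose calls were lost when single libraries were left out, the CD4 T cell markers one by one, and further intermediate list members, and some genes are not reported here. Alternatives covered scaling (RLE, library size), filters, DESeq2 1.42.0, limma-voom (limma 3.58.1), glmTreat, a fit with Th1 and Tfh as 1 group, a replicate block, a plain CPM midpoint, a 1.5-fold margin, each library left out and, added after seeing the data, a GC correction.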

Additional observations from a re-analysis of the deposited data

Results flagged for a closer look

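The named genes gave 258 groups of 5 libraries, of which those with all values under 1 CPM were counted but not examined. In 19 groups, a single library lay so far from the other 4 that its gap exceeded Dixon's 95% limit. Chance alone marks about 1 in 20 groups examined, a number smaller than 258. Of the 19, 8 were in Tfh replicate 1, the shallowest library. There Hsd17b13 (5.41 CPM, others at most 1.48), Sv2c (12.2, others at most 4.10), Pdxdc1 (66.5, others at most 45.1) and Nlrc5 (59.5, others at most 29.6) were high. In the same library Nt5e (983 CPM, others at least 1378), Pou2af1 (343.7, others at least 421), Tmem176a (10.2, others at least 45.8) and Mcm4 (199, others at least 296) were low.

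In Th17 replicate 1, Il2 (59.8 CPM), Ccr4 (155), Ccr6 (93.4) and Pdpn (333) were high. In Th17 replicate 4, Upp1 (76.6 CPM) and Il4ra (379.7) were high, and in Th17 replicate 2 Peg10 (70.8) was. Peg10 was also high in Tfh replicate 5 (25.1 CPM) and Tnfsf10 in Tfh replicate 3 (17.1). In Th1, Itpr2 was low in replicate 1 (25.9 CPM) and Ifnar1 high in replicate 4 (154.7). The cause of these values was not tested.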

How the results depend on the processing

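The number of genes that rose (1313) moved to 344 with glmTreat for changes above 1.5-fold and to 141 with Th1 and Tfh fitted as 1 group, and the number that fell (869) to 206 and 98. DESeq2 called 1343 and the GC correction 1482 genes lower. With the replicate block, 1828 rose and 1129 fell. The numbers share no stated origin: same-numbered libraries had correlations of deviations from -0.10 to 0.57, 7 of 15 above 0.1, and 8 of 15 correlated best with their own number. Leaving out each library gave 930 to 1477 genes that rose and 662 to 963 that fell. Genes set apart as highest (212) were 31 and as lowest (79) were 4 with a margin of 1.5-fold. Leaving out libraries gave 191 to 291 highest and 80 to 134 lowest genes, with 134 without Th17 replicate 4 and 122 without Tfh replicate 1, each holding all 79. With a library left out the rule is easier to meet, so the holding of its members is no sign of stability. Under all 3 scalings 159 highest and 64 lowest genes met the rule.

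Among the 86 named genes, the call was lost without a change of sign for 27 with glmTreat and for 40 with Th1 and Tfh as 1 group. Log2 values that changed sign were those of Bcl6 (-0.22) and Maf (-0.040) with Th1 and Tfh as 1 group, of Maf with the plain CPM midpoint (-0.040), and of Il2ra. The last was 0.02, and -0.026 with RLE factors, -0.024 with the strict filter, -0.31 with Th1 and Tfh as 1 group, -0.026 with DESeq2, -0.032 with the GC correction and -0.018 to 0.045 without single libraries. Bcl6 was called with the replicate block (edgeR adjusted p = 0.00301). The cause was not tested. Low depth limits genes under about 10 CPM, where 3 counts equal 0.127 to 0.579 CPM.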
